A study of Mus musculus with 21 samples.

Results

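Brown fat releases signals that reach other organs, and the question addressed here was whether RNA of a fast hindlimb muscle changed when the transcription factor IRF4 was lost from brown fat. The comparison covered the white vastus lateralis of BATI4KO mice against that of their floxed littermates, and its members were all 10 white vastus libraries, 5 of each genotype, out of 21 libraries in the series; the other 11 were brown adipose tissue. The labels give the genotypes only as BATI4 KO and Floxed. From what is known of this model, and not from the labels, the floxed Irf4 gene is removed by a Cre recombinase under the control of the Ucp1 promoter, which is active in brown and beige adipocytes, so the muscle fibres are not the target, and the controls carry the floxed alleles without the Cre. The labels also give the tissue and an animal-style number in each title, and they give no age, sex, diet, housing temperature, fasting state or time of day. By those numbers the floxed libraries are called FX_5413, FX_5415, FX_5497, FX_5503 and FX_5514 here, and the BATI4KO libraries KO_5492, KO_5493, KO_5494, KO_5495 and KO_5496, in which order their values are given. Nothing says outright that each library is a separate mouse, so the spread behind every p-value is that among libraries and may be partly technical. The libraries held 30479508 to 40328627 counts assigned to 28541 gene models, from ribosome-depleted RNA of whole tissue.

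The white, superficial part of the vastus lateralis is built mainly of type IIB fibres, which contract fast, burn glycogen and carry the myosin heavy chain encoded by Myh4. Slow type I fibres carry Myh7, and the intermediate fast fibres carry Myh1 and Myh2. Muscle size and fibre character respond to circulating factors, of which myostatin, a hormone that limits muscle growth, is the best known; in brown fat IRF4 drives the thermogenic genes together with the coactivator PGC-1alpha.

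The tissue was what its label says. Transcripts of 8 skeletal muscle markers summed to 170900 to 306000 CPM (counts scaled to a common library size, with the trimmed mean of M values) in the floxed libraries and 175300 to 397500 CPM in the BATI4KO libraries. Of the 4 adult heavy chains, set against each other per base of gene model, Myh4 made up between 74.3% and 97.4% of the floxed and between 72.6% and 95.6% of the BATI4KO total. Ucp1, the uncoupling protein of brown fat, reached at most 12 counts in any library and was too low to test.

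Irf4 itself was a minor transcript of the muscle. It stood at 2.499, 4.26, 4.95, 3.62 and 3.16 CPM in the floxed libraries and at 2.21, 2.64, 2.64, 2.97 and 2.81 CPM in the BATI4KO libraries, and the groups overlapped. The log2 difference, BATI4KO minus floxed as throughout, was -0.48 ± 0.19 (SE, adjusted p = 0.489) by edgeR's quasi-likelihood test with Benjamini-Hochberg adjustment, and it did not pass. In brown fat the same genotype difference was -2.45 ± 0.24 (SE, adjusted p = 0.0026). Whether the muscle's few Irf4 transcripts come from fibres or from blood and immune cells cannot be told apart in whole tissue, and neither can fewer cells of a type and less RNA per cell. Mstn, which encodes myostatin, was 40.6, 92.1, 90.1, 116 and 54.1 CPM in floxed and 43.5, 97.6, 101, 40.3 and 95.97 CPM in BATI4KO muscle, with a log2 difference of -0.06 ± 0.33 (SE, adjusted p = 0.974). The 2 lowest BATI4KO values, those of KO_5492 and KO_5495, belonged to the libraries richest in slow fibre RNA.

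Several libraries stood apart from others of their own genotype, and 3 such patterns bear on the results. The first was slow fibre content. Myh7, the slow heavy chain, was 10.3, 2.24, 32.2, 0.675 and 182 CPM in the floxed libraries and 586, 19.9, 2.69, 1007 and 6.69 CPM in the BATI4KO libraries, so KO_5492 and KO_5495 and FX_5514 were far above the other 7. Its share of the 4 heavy chains was 1.13% and 1.18% in those BATI4KO libraries and 0.209% in FX_5514, so even there the muscle was overwhelmingly fast. Tnnt1, Tnnc1, Myl2 and Tpm3, all sarcomere genes of slow fibres, followed the same libraries, as the plot of slow fibre genes shows.

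The second pattern concerned Rmrp and Rpph1, the RNA components of RNase MRP and RNase P. Rmrp measured 14.8, 22.4, 107, 108 and 134 CPM in the floxed and 11.8, 11.9, 12.2, 13.4 and 15.2 CPM in the BATI4KO libraries. Rpph1 measured 20.96, 25.9, 273, 295 and 296 CPM in the floxed and 16.7, 13.2, 13.8, 20.9 and 23.01 CPM in the BATI4KO libraries. Both were high in FX_5497, FX_5503 and FX_5514 and low in FX_5413 and FX_5415, which lay near the BATI4KO libraries. Their log2 differences were -2.58 ± 0.51 (SE, adjusted p = 0.175) and -3.38 ± 0.69 (SE, adjusted p = 0.19), and without FX_5413 and FX_5415 both passed the threshold. Those 2 are the floxed libraries low in both RNAs, so that result follows in part from which libraries were left out. Scarna13, a small RNA of Cajal bodies, and the histone genes Hist1h4c and Hist1h4d split the same way; Scarna13 was 3.82, 4.24, 16.6, 18.5 and 19.2 CPM in the floxed and 2.81 to 4.66 CPM in the BATI4KO libraries. Across the 10 short structured noncoding RNAs that could be tested, none had a positive difference and the median was -0.79, against -0.01 for all genes. In the 7 libraries with low Rmrp (2 floxed, 5 BATI4KO) that median was -0.36. Rmrp and Rpph1 are in this list, and the 7 libraries were chosen by Rmrp, so that value follows in part from the choice.

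The third was Lars2, which encodes the mitochondrial leucyl-tRNA synthetase, at 1871, 4435, 143, 117 and 147 CPM in the floxed and 331, 537, 308, 1409 and 1756 CPM in the BATI4KO libraries. The unannotated transcript AK144265 moved with it, from 4.94 CPM in FX_5503 to 413 CPM in FX_5415. FX_5413 and FX_5415 and KO_5495 and KO_5496 were the high ones. The 3 lowest were FX_5497, FX_5503 and FX_5514, the libraries with high Rmrp, and all BATI4KO libraries lay above these 3.

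Length of the gene model ran along with the Rmrp pattern. With all 10 libraries the median log2 difference was -0.41 for the 123 genes under 500 bases, -0.18 for 765 genes of 500 to under 1000 bases and 0.09 for 1189 genes of 8000 bases or more. In the 7 libraries with low Rmrp the shortest class was at -0.07 and the next class at -0.09, whereas without FX_5413 and FX_5415 they were at -0.49 and -0.23. In the low-Rmrp libraries 62.7% and 66.2% of these classes were still negative, against 76.4% and 78.3% with all 10. Genes of 1000 to under 2000 bases were at -0.08, -0.08 and -0.08 in the 3 sets of libraries, so the sets differed in the 2 shortest classes and hardly in this one.

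**Figure D1:**
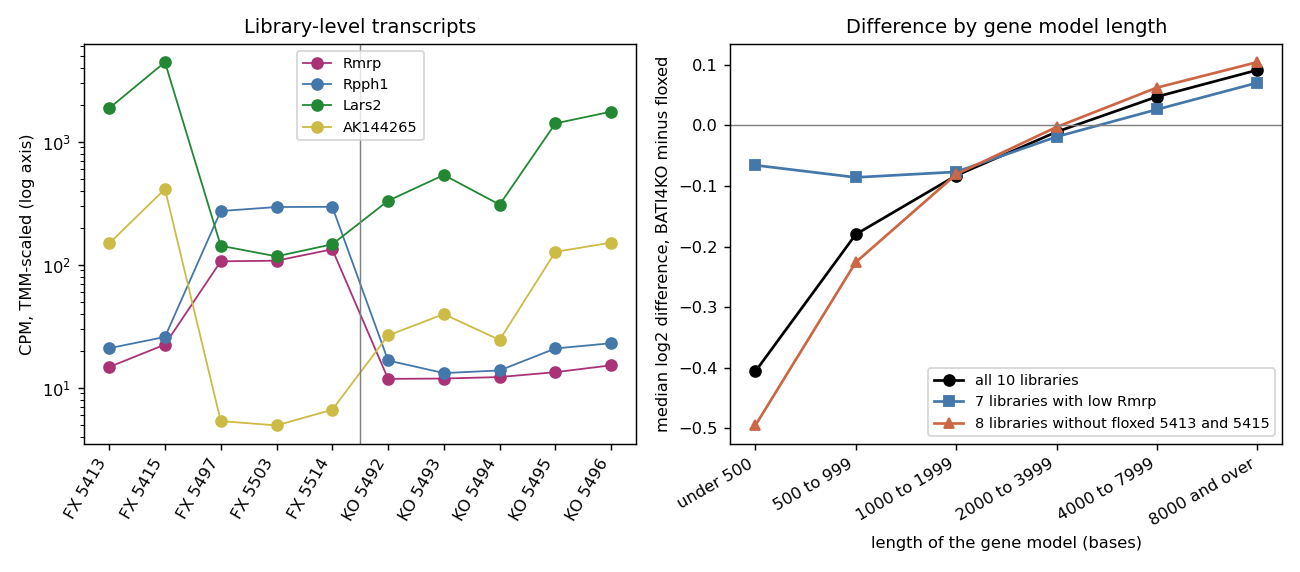
Left, CPM on a log axis of Rmrp, Rpph1, Lars2 and AK144265 in the 5 floxed (FX) and 5 BATI4KO (KO) libraries, joined by lines only to guide the eye; right, median log2 difference of all genes tested by length of the gene model, for all 10 libraries and 2 subsets. Rmrp and Rpph1 are high in FX_5497, FX_5503 and FX_5514, and the median difference climbs from -0.41 in the shortest to 0.09 in the longest class.

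Of the 28541 models, 14529 had enough counts to be tested. Across these, 1 rose in BATI4KO muscle at an adjusted p under 0.05, which is 0.00688% of the genes tested, and 0 fell (0%). At an unadjusted p under 0.05, 470 genes (3.23%) were higher and 825 (5.68%) lower, of which Elmod2 alone passed after adjustment. The 5 values of one group lay wholly above those of the other for 66 genes (0.454%) that were higher in BATI4KO and for 114 (0.785%) that were lower. DESeq2 called 111 genes, 29 higher and 82 lower. Leaving out 1 library gave 10 genes without FX_5413, 11 without KO_5495 and 0 without FX_5415, FX_5497, FX_5514, KO_5492, KO_5493 or KO_5494. The count reached 134 (21 higher, 113 lower) without FX_5413 and FX_5415. With library totals alone as the scaling the median of all genes was -0.12 instead of -0.01, so the sign of a list median nearer to 0 than 0.11 depends on the scaling and is given no direction. The larger set without FX_5413 and FX_5415 was led by Rmrp, Rpph1, Scarna13, histone and ribosomal protein genes.

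The gene that passed was Elmod2 (gene model uc009mjz.2), which encodes an ELMO domain protein that stimulates GTP hydrolysis by ARL and ARF family GTPases and acts at lipid droplets and mitochondria. Its level was 13.8, 18.6, 17.5, 21.9 and 17.6 CPM in the floxed libraries and 33.4, 41.7, 47.9, 32.1 and 43.6 CPM in the BATI4KO libraries. Every BATI4KO library was above every floxed one, including the slow-rich and the Rmrp-low ones. The log2 difference was 1.15 ± 0.14 (SE, adjusted p = 0.0449), a 2.22-fold rise. In brown fat Elmod2 differed by 1.02 ± 0.21 (SE, adjusted p = 0.14), and the test of the difference between the tissues did not pass (adjusted p = 0.881).

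Elmod2 lies on mouse chromosome 8 directly beside Ucp1 in the RefSeq annotation, with no other protein-coding gene between them. Ucp1 itself was near 0 in the muscle. Tbc1d9, the protein-coding neighbour on the far side of Ucp1, was 1.46 to 3.07 CPM in floxed and 1.59 to 2.75 CPM in BATI4KO muscle, with a log2 difference of 0.06 ± 0.24 (SE, adjusted p = 0.964). Tbc1d9 was picked for its position after the result was known. The start region of Elmod2 in RefSeq (GRCm38.p6, chr8:83332437-83332736, minus strand; 250 bases before to 50 after the annotated start) is shown because this is the gene the comparison turned on. It is written in lower case, as it held neither motif searched for the clock genes further on.
Elmod2: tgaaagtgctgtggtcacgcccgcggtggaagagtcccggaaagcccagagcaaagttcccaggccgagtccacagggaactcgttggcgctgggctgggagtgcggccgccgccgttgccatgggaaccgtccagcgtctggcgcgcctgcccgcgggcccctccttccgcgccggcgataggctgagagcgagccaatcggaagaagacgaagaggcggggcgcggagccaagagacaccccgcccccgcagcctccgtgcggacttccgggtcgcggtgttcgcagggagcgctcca

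The Elmod2 call was close to the threshold. Under 28 alternatives its log2 difference stayed between 1.02 and 1.33 and passed in 13, and it was lost when FX_5415, FX_5497 or FX_5514 or KO_5492, KO_5493, KO_5494 or KO_5496 was left out (adjusted p from 0.0546 to 0.213). The adjusted p was 0.176 with library totals only, 0.23 with the Rmrp and Rpph1 level as a covariate, 0.519 in the low-Rmrp libraries and 0.975 with the tendon level as a covariate, at log2 differences of 1.02, 1.33, 1.28 and 1.11.

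Dusp10, a phosphatase that switches off the stress kinases p38 and JNK, came second. It was 28.7, 24.9, 15.4, 17.5 and 28.3 CPM in the floxed and 61.1, 84.6, 75.7, 40.8 and 59.7 CPM in the BATI4KO libraries, again without overlap. The log2 difference was 1.49 ± 0.22 (SE, adjusted p = 0.0802), and the lowest BATI4KO value was that of KO_5495. Of the other MAP kinase phosphatases, Dusp8 was 0.48 ± 0.17 (SE, adjusted p = 0.457) and Dusp1 was -0.30 ± 0.18 (SE, adjusted p = 0.664); across the list 4 of 8 tested members were positive, with a median of 0.07.

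Hdac9 encodes a class IIa histone deacetylase that represses MEF2-driven muscle genes. Its gene model uc007njc.2 measured 5.76, 6.16, 4.78, 5.19 and 5.24 CPM in floxed and 9.42, 9.46, 12.2, 8.42 and 7.75 CPM in BATI4KO muscle. The difference of this model, 0.80 ± 0.13 (SE, adjusted p = 0.106), did not pass. The other Hdac9 model, uc007niy.1, differed by 0.10 ± 0.22 (SE, adjusted p = 0.925), and its groups overlapped. Cecr2, a bromodomain subunit of chromatin remodelling complexes, was 17.3 to 30.1 CPM in floxed and 33.4 to 41.9 CPM in BATI4KO libraries (log2 difference 0.79, SE 0.15, adjusted p = 0.175). The floxed maximum was FX_5413, so the gap to the lowest BATI4KO value was narrow. Tnfaip2, induced by tumour necrosis factor in endothelial cells, ranged over 39.6 to 54.8 and 65.5 to 81.7 CPM (log2 difference 0.53, SE 0.10, adjusted p = 0.175). Fam123b, an inhibitor of Wnt signalling, ranged over 9.43 to 11.4 and 13.5 to 21.5 CPM (log2 difference 0.69, SE 0.14, adjusted p = 0.175). Grip2, a scaffold of glutamate receptors, was low at 1.97 to 2.81 and 3.39 to 5.72 CPM (log2 difference 0.87, SE 0.17, adjusted p = 0.175), and the gene overlaps Ccdc174, from whose reads it may not have been told apart. The unnamed model 9830001H06Rik, listed as Soga1 in RefSeq and overlapping Tldc2 there, ranged over 7.55 to 11.04 and 13.2 to 14.3 CPM (log2 difference 0.58, SE 0.11, adjusted p = 0.175). All 10 genes of smallest p on the higher side, Nr1d1 and Clock included, had groups that did not overlap, and only Elmod2 passed. Choosing genes by smallest p favours such groups, and 0.454% of all genes tested had them on that side.

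**Figure D2:**
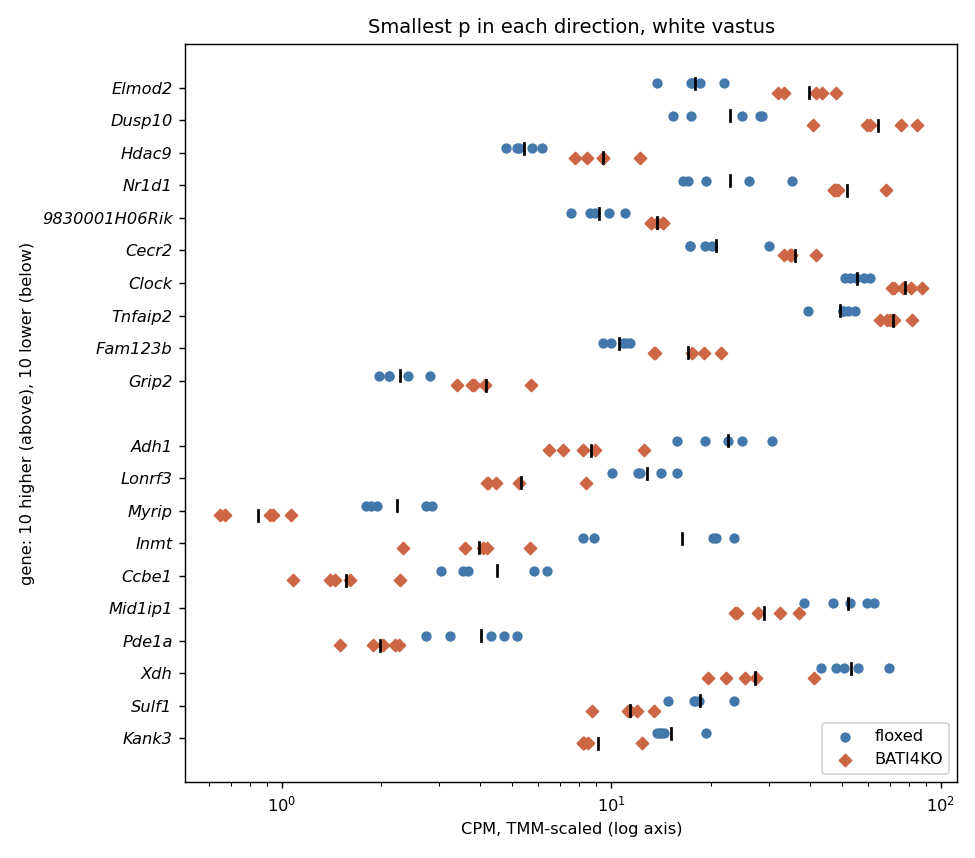
CPM on a log axis of the 10 genes with the smallest p on each side; circles are the 5 floxed and diamonds the 5 BATI4KO libraries, and black bars are group means. The groups are separate for each of the 20 genes, which choice by smallest p favours, and only Elmod2 passed the adjusted threshold. Over all genes tested the groups are separate for 0.454% on the higher and 0.785% on the lower side.

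On the lower side no gene passed. Adh1, an alcohol and retinol dehydrogenase, was 19.3, 24.9, 30.6, 15.8 and 22.5 CPM in floxed and 7.15, 6.48, 8.18, 12.6 and 8.91 CPM in BATI4KO muscle. Its difference was -1.39 ± 0.20 (SE, adjusted p = 0.0802), and KO_5495 lay nearest to the floxed libraries. Inmt, an indolethylamine methyltransferase, was 8.85, 23.6, 20.8, 20.3 and 8.195 CPM in floxed and 3.61, 2.33, 5.67, 4.19 and 4.08 CPM in BATI4KO libraries. It had the widest gap of the 10, -2.04 ± 0.32 (SE, adjusted p = 0.0824), and the floxed values themselves fell into a low pair, FX_5413 and FX_5514, and 3 higher ones. Xdh, xanthine dehydrogenase, which makes uric acid, was 43.3 to 69.4 CPM against 19.6 to 41.2 CPM (log2 difference -0.97, SE 0.19, adjusted p = 0.175).

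Lonrf3, a RING finger protein, was 15.8, 12.04, 12.2, 14.2 and 10.03 CPM in floxed and 4.21, 4.24, 4.48, 5.26 and 8.401 CPM in BATI4KO libraries, with a difference of -1.28 ± 0.20 (SE, adjusted p = 0.0824); KO_5496 was the one library near the floxed range. Mid1ip1, which promotes polymerisation of acetyl-CoA carboxylase and so fatty acid synthesis, was 38.3 to 62.7 CPM against 23.7 to 36.99 CPM (log2 difference -0.85, SE 0.16, adjusted p = 0.175). Ccbe1, which activates the lymphatic growth factor VEGF-C, was 3.04 to 6.36 CPM against 1.08 to 2.28 CPM (log2 difference -1.53, SE 0.26, adjusted p = 0.106). Sulf1, an extracellular heparan sulfatase, was 14.8 to 23.5 CPM against 8.72 to 13.5 CPM (log2 difference -0.71, SE 0.14, adjusted p = 0.175). Kank3, an ankyrin repeat protein of the KANK family, was 13.8 to 19.4 CPM against 8.23 to 12.4 CPM (log2 difference -0.73, SE 0.15, adjusted p = 0.175). Pde1a, a calmodulin-dependent phosphodiesterase, and Myrip, which links Rab27a to myosin motors, were below 6 CPM everywhere and differed by -1.02 ± 0.20 (SE, adjusted p = 0.175) and -1.40 ± 0.22 (SE, adjusted p = 0.0824). Adipocyte, tendon, fibroblast and macrophage markers were lower in the same direction, as given further on. With the tendon level as a covariate the log2 difference was -1.41 for Inmt, -1.28 for Adh1 and -1.40 for Lonrf3. That fit cannot fully tell tendon level from genotype, and the part of these cell types in the differences was not tested.

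The clock genes gave 2 of the 10 leading higher genes. In the circadian loop CLOCK and BMAL1 (the product of Arntl) activate Per, Cry and Nr1d1, and the REV-ERB proteins encoded by Nr1d1 and Nr1d2 repress Arntl through the half-site AGGTCA. Nr1d1 was 35.3, 19.4, 17.1, 16.5 and 26.1 CPM in floxed and 48.1, 68.2, 47.3, 47.3 and 48.7 CPM in BATI4KO muscle, a difference of 1.18 ± 0.21 (SE, adjusted p = 0.128). The gene overlaps Thra in the annotation, so reads of the pair may not have been told apart; Thra itself differed by 0.19 ± 0.14 (SE, adjusted p = 0.726). Clock was 55.3, 52.97, 51.0, 58.4 and 61.1 CPM in floxed and 81.4, 87.8, 76.6, 71.2 and 72.1 CPM in BATI4KO muscle, a difference of 0.48 ± 0.09 (SE, adjusted p = 0.175).

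The other parts of the loop did not follow one pattern. Arntl was 5.87, 5.83, 5.86, 8.23 and 4.35 CPM in floxed and 12.2, 12.2, 10.7, 5.88 and 6.21 CPM in BATI4KO muscle (log2 difference 0.65, SE 0.23, adjusted p = 0.45), higher in KO_5492, KO_5493 and KO_5494 and within the floxed range in KO_5495 and KO_5496. Per3 differed by -0.32 ± 0.10 (SE, adjusted p = 0.431), Per1 by 0.10 ± 0.18 (SE, adjusted p = 0.913), Per2 by -0.24 ± 0.20 (SE, adjusted p = 0.763), Cry1 by 0.20 ± 0.13 (SE, adjusted p = 0.684) and Nr1d2 by -0.05 ± 0.10 (SE, adjusted p = 0.923). Among clock outputs, Bhlhe40, a repressor of CLOCK and BMAL1, was 74.7, 60.97, 30.03, 24.5 and 38.05 CPM in floxed and 73.9, 94.2, 73.9, 61.9 and 88.5 CPM in BATI4KO muscle (log2 difference 0.78, SE 0.27, adjusted p = 0.441), with FX_5413 and FX_5415 close to the BATI4KO range. It was 0.20 in the low-Rmrp libraries and passed at 1.35 (adjusted p = 0.00706) without FX_5413 and FX_5415. Nfil3, a repressor of D-box genes, was -0.61 ± 0.18 (SE, adjusted p = 0.401), and Dbp, their activator, 0.05 ± 0.16 (SE, adjusted p = 0.954). In all 7 of 14 core clock genes and 9 of 16 output genes were positive, with medians of 0.03 and 0.04, and none passed. The labels do not give the time of day at which tissue was taken.

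The half-site AGGTCA, searched on both strands, was in 1 of 2 RefSeq start regions of Arntl and in 1 of 3 of Clock, and it is in 16.3% of all 32851 start regions of this length. In Arntl it begins 31 bases after the annotated start, and in Clock at position -119 on the opposite strand, where it reads TGACCT. The E-box CACGTG, which CLOCK and BMAL1 bind, is in 7.15% of them and in neither of these. Of the other clock genes searched, Per1, Nr1d2 and Nfil3 also held the half-site, and Per1 and Cry1 the E-box. Nr1d1, Per3, Cry2, Npas2 and Dbp held neither motif. Both regions are printed to show where the letters lie in the 2 clock genes whose products drive the positive limb; capitals mark the half-site (GRCm38.p6, chr7:113207261-113207560, plus strand for Arntl and chr5:76303453-76303752, minus strand for Clock).
Arntl: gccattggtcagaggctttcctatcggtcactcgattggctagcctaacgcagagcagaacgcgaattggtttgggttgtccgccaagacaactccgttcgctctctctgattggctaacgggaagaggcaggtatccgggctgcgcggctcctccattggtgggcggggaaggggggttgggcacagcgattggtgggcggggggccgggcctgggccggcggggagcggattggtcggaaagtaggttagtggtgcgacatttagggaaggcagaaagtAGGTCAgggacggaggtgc
Clock: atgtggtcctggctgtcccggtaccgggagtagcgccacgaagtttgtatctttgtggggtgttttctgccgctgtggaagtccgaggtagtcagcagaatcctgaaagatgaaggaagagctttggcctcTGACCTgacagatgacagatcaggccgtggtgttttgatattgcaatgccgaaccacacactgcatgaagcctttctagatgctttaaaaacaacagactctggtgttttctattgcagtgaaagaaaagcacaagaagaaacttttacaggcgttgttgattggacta

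Fibre type genes did not separate the genotypes. Of 16 slow fibre genes tested, 13 were positive, the median log2 difference was 1.25 and none passed. The mean log2 CPM of the list was 4.07, 3.17, 4.93, 1.71 and 5.95 in the floxed and 7.08, 3.69, 2.92, 7.17 and 2.71 in the BATI4KO libraries, with wide overlap, and KO_5492 and KO_5495 were the highest of the 10. The median was -0.18 with slow fibre content as a covariate and -0.72 without KO_5492, KO_5495 and FX_5514, and both values follow in part from how the covariate and the libraries were chosen, on this list itself. Atp2a2, the slow calcium pump, was 33.4, 42.6, 67.6, 38.3 and 152 CPM in floxed and 404, 57.9, 40.8, 558 and 57.5 CPM in BATI4KO muscle (log2 difference 1.75, SE 0.74, adjusted p = 0.53). Tnnc1, the slow troponin C, differed by 2.93 ± 1.42 (SE, adjusted p = 0.583), Tpm3 by 1.73 ± 0.78 (SE, adjusted p = 0.549) and Myh7 by 2.84 ± 1.62 (SE, adjusted p = 0.655). Tnni1 (2.83), Tnnt1 (2.58), Myl2 (1.94), Myl3 (1.38), Myoz2 (1.11), Ankrd2 (0.75), Csrp3 (0.63), Myh7b (0.38) and Casq2 (0.14) had positive log2 differences, and Mb (-0.14), Fhl1 (-0.12) and Pln (-0.37) negative ones. Sln was too low to test.

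Differences were small among the 19 fast fibre genes, with 7 positive, differences from -0.27 to 0.45 and a median of -0.06. Myh4 differed by 0.12 ± 0.36 (SE, adjusted p = 0.952), Myh1 by -0.27 ± 0.60 (SE, adjusted p = 0.927) and Myh2 by 0.45 ± 0.55 (SE, adjusted p = 0.853). Actn3 (-0.08), Mybpc2 (-0.06), Tnnt3 (-0.08), Tnni2 (-0.15), Tnnc2 (-0.06), Mylpf (-0.22), Myl1 (-0.11), Pvalb (-0.20) and Atp2a1 (0.15), which make up the fast sarcomere, the calcium buffer and the calcium pump, did not pass either. Kcnma1, a calcium-gated potassium channel, was the fast gene of smallest p, at 0.43 ± 0.17 (SE, adjusted p = 0.489). Contraction and calcium handling as a wider list had 33 of 54 positive and a median of 0.08. In it Cryab, the small heat shock protein of the Z-disc, was 103, 87.1, 85.2, 63.5 and 106 CPM in floxed and 152, 122, 113, 209 and 117 CPM in BATI4KO muscle (log2 difference 0.68, SE 0.19, adjusted p = 0.353), without overlap.

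**Figure D3:**
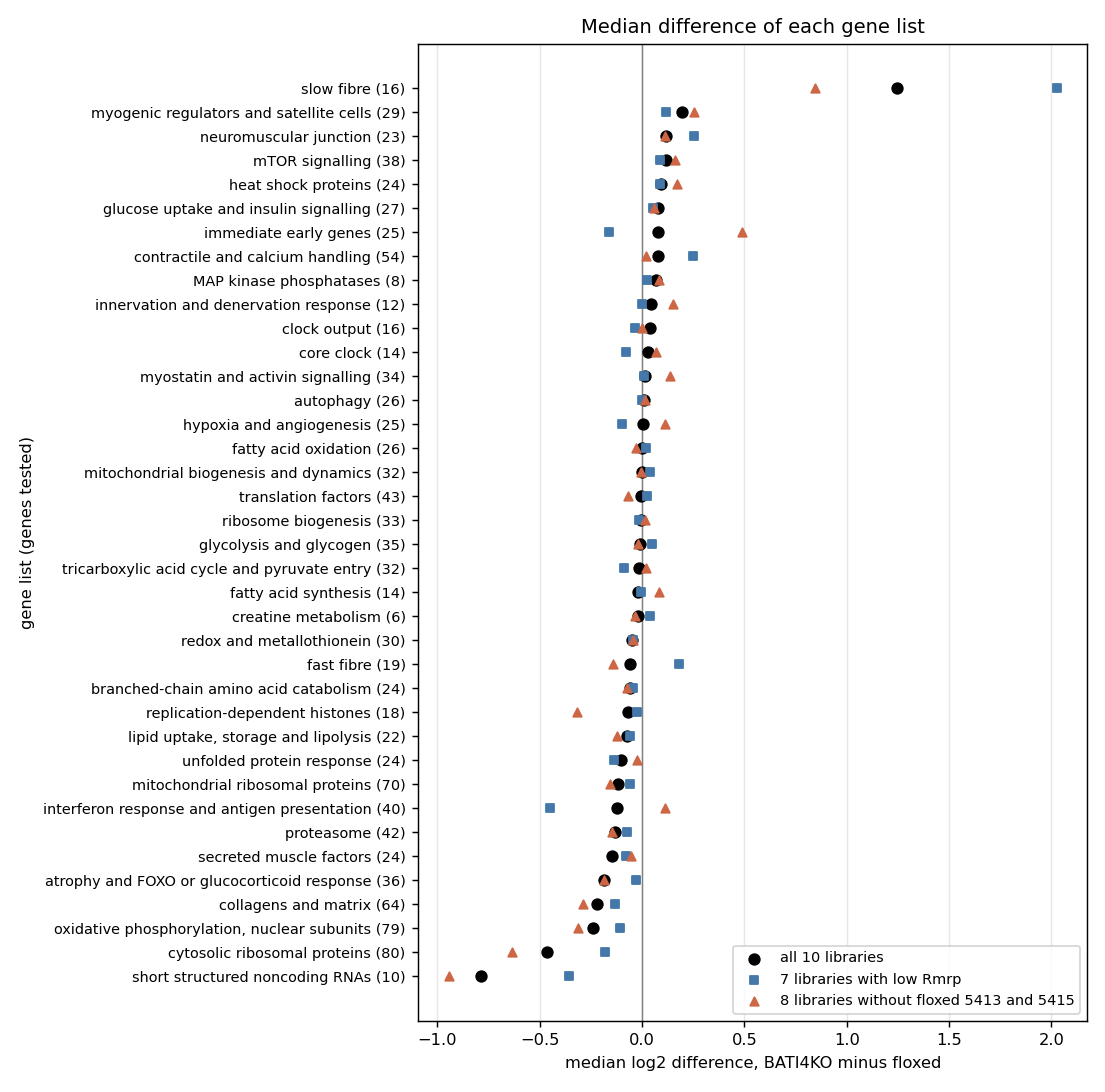
Median log2 difference (BATI4KO minus floxed) of each gene list with 5 or more genes tested, for all 10 libraries, for the 7 with low Rmrp and for the 8 without FX_5413 and FX_5415. Cytosolic ribosomal protein genes are at -0.47, -0.18 and -0.64 in the 3 sets, and the slow fibre list at 1.25, 2.03 and 0.84.

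Cytosolic ribosomal protein genes were the largest group to lean one way. Of 80 tested, 79 had a negative difference, the exception being a minor second model of Rps4x at 0.06, with the main Rps4x model at -0.25, and the median was -0.47. None passed; 66 had an unadjusted p under 0.05 on the lower side, where 5.68% of all genes did, and 13 had groups that did not overlap, as 0.785% of all genes did on that side. Rps25 was 46.9, 41.4, 70.5, 77.2 and 70.8 CPM in floxed and 40.9, 30.4, 34.3, 38.6 and 40.4 CPM in BATI4KO muscle (log2 difference -0.73, SE 0.17, adjusted p = 0.285). Rps27 was 17.98, 18.03, 35.9, 37.9 and 36.8 CPM in floxed and 17.2, 11.5, 14.1, 16.6 and 16.1 CPM in BATI4KO muscle (log2 difference -0.95, SE 0.23, adjusted p = 0.285). Rpl36 differed by -0.90 ± 0.22 (SE, adjusted p = 0.285). In each of these the 3 floxed libraries with high Rmrp stood above the other 7.

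The size of the ribosomal difference followed the floxed libraries used. The mean log2 CPM of the 80 genes was 5.42, 5.38, 5.86, 5.95 and 5.81 in FX_5413, FX_5415, FX_5497, FX_5503 and FX_5514 and 5.42, 4.92, 5.13, 5.24 and 5.34 in the BATI4KO libraries. In the 7 libraries with low Rmrp 79 of 80 were still negative, the median was -0.18 and 2 had an unadjusted p under 0.05. On the lower side 3.32% of all genes had one in these 7 libraries. Without FX_5413 and FX_5415 the median was -0.64 and 36 passed, where 113 of all 14918 genes tested passed on the lower side. These genes are short, with a median model length of 776 bases; 1226 other genes between 569 and 1256 bases long had a median of -0.14, with 74.5% negative against 98.8% of the ribosomal genes. Many have near-identical processed copies in the genome, so single values are uncertain.

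Other short genes of the mitochondria leaned the same way and less. Nuclear-encoded subunits of oxidative phosphorylation had 3 of 79 positive, a median of -0.24 and 18 with an unadjusted p under 0.05 on the lower side, where 5.68% of all genes had one. In the low-Rmrp libraries 0 of the 79 had one, where 3.32% of all genes did. Ndufa7, of complex I, was 21.5 to 41.4 CPM in floxed and 19.9 to 26.1 CPM in BATI4KO muscle (log2 difference -0.53, SE 0.17, adjusted p = 0.431), and Cox7a2, of complex IV, differed by -0.79 ± 0.26 (SE, adjusted p = 0.431). The list's median was -0.11 in the libraries with low Rmrp and -0.31 without FX_5413 and FX_5415. Its median length was 699 bases, and 1386 other genes of like length had a median of -0.14. Mitochondrial ribosomal proteins had 9 of 70 positive and a median of -0.12. Mrps31, one of the longer genes among them, was 18.5, 18.4, 18.5, 17.6 and 19.6 CPM in floxed and 15.5, 11.8, 15.4, 13.9 and 13.8 CPM in BATI4KO muscle (log2 difference -0.39, SE 0.09, adjusted p = 0.285), without overlap. Proteasome subunits had 9 of 42 positive and a median of -0.13, with Psma7 at -0.31 ± 0.11 (SE, adjusted p = 0.445). Replication-dependent histones had a median of -0.07, and 6 of 18 had an unadjusted p under 0.05 on the lower side, where 5.68% of all genes had one. Hist1h4c was -3.47 ± 0.79 (SE, adjusted p = 0.274), Hist1h4d -2.22 ± 0.48 (SE, adjusted p = 0.251) and Hist2h2bb -2.42 ± 0.60 (SE, adjusted p = 0.323), and these and Hist4h4 passed without FX_5413 and FX_5415.

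Other genes of the same organelle and of translation showed no such lean with all 10 libraries. Citrate cycle and pyruvate entry genes had 13 of 32 positive and a median of -0.02, translation factors 19 of 43 and -0.01, ribosome biogenesis factors 15 of 33 and -0.01, and mitochondrial biogenesis and dynamics genes 16 of 32 and -0.002. Without KO_5492, KO_5495 and FX_5514 the citrate cycle median was -0.163 and that of ribosome biogenesis 0.04. Oxidative phosphorylation was then at -0.415 and all genes at -0.04. Eef1a1, the elongation factor that delivers tRNAs, was -0.55 ± 0.22 (SE, adjusted p = 0.505), with FX_5415 the high library. Ppargc1b, a coactivator of mitochondrial genes, was 5.83 to 19.9 CPM in floxed and 14.5 to 26.3 CPM in BATI4KO muscle (log2 difference 0.79, SE 0.29, adjusted p = 0.465). mTOR signalling genes, which control translation, had 26 of 38 positive and a median of 0.12; Irs1 was 0.57 ± 0.22 (SE, adjusted p = 0.494) and Sesn1, an inhibitor of the pathway, -0.52 ± 0.22 (SE, adjusted p = 0.521). The only mitochondrially encoded model tested, mt-Nd4, was 0.33 ± 0.41 (SE, adjusted p = 0.853).

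Genes of the fasting, FOXO and glucocorticoid response were mostly lower. Of 36 tested, 8 were positive, the median was -0.18, 9 had an unadjusted p under 0.05 on the lower side, where 5.68% of all genes had one, and none passed. In the low-Rmrp libraries 3 had one on the lower and 2 on the higher side, where 3.32% and 1.77% of all genes did. Foxo1, the factor that induces muscle wasting genes, was 45.7, 30.3, 83.9, 61.3 and 55.1 CPM in floxed and 16.1, 22.2, 23.9, 46.1 and 26.2 CPM in BATI4KO muscle (log2 difference -1.04, SE 0.29, adjusted p = 0.366). Cebpb, a basic leucine zipper factor, was 70.5, 76.7, 100.1, 73.4 and 83.99 CPM in floxed and 37.6, 37.7, 36.2, 65.8 and 52.3 CPM in BATI4KO muscle (log2 difference -0.82, SE 0.17, adjusted p = 0.229), without overlap. Klf15, a glucocorticoid target that drives amino acid breakdown, was 54.5 to 91.9 CPM against 35.1 to 58.6 CPM (log2 difference -0.71, SE 0.17, adjusted p = 0.285).

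Among the ubiquitin ligases of atrophy, Trim63 (MuRF1) differed by -0.73 ± 0.24 (SE, adjusted p = 0.431) and Fbxo32 (atrogin-1) by -0.30 ± 0.15 (SE, adjusted p = 0.6). Trim63 was 143.9 CPM in FX_5413, below all BATI4KO libraries, of which the lowest was 151.8 CPM. Fkbp5, a glucocorticoid-induced chaperone of the receptor, was -1.22 ± 0.43 (SE, adjusted p = 0.443). It was 24.3, 33.2, 126, 121 and 66.4 CPM in floxed and 20.04 to 51.98 CPM in BATI4KO muscle, with FX_5413 and FX_5415 inside the BATI4KO range. In the libraries with low Rmrp the list's median was -0.03, and without FX_5413 and FX_5415 it was -0.19. Autophagy genes had 13 of 26 positive and a median of 0.01.

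In the fit reported no fuel use gene passed the threshold, and the lists of these genes had medians near 0. Ucp3, the uncoupling protein of muscle, induced by fatty acids, was 166, 198, 426, 309 and 236 CPM in floxed and 130.4, 125, 120.5, 166 and 165 CPM in BATI4KO muscle (log2 difference -0.92, SE 0.23, adjusted p = 0.329). The groups lay less than 1 CPM apart, at FX_5413 and KO_5495, without overlap. The difference was -0.37 in the low-Rmrp libraries, and it passed at -1.19 (adjusted p = 0.0167) without FX_5413 and FX_5415. Txnip, an inhibitor of glucose uptake, was 447 to 682 CPM against 292 to 417 CPM (log2 difference -0.48, SE 0.15, adjusted p = 0.415), also without overlap. Pfkfb3, whose product speeds glycolysis through fructose 2,6-bisphosphate, was 110.5, 94.1, 23.3, 66.8 and 42.6 CPM in floxed and 117, 500.1, 279, 92.6 and 325 CPM in BATI4KO muscle (log2 difference 1.96, SE 0.49, adjusted p = 0.335). KO_5493, KO_5494 and KO_5496 were high. Of the slow-rich libraries, KO_5492 lay just above the highest floxed value and KO_5495 within the floxed range. Ppp1r3c, which targets a phosphatase to glycogen, was 315, 424, 1932, 2420 and 892 CPM in floxed and 379.9, 559, 646, 536 and 562 CPM in BATI4KO muscle (log2 difference -1.16, SE 0.48, adjusted p = 0.519), with FX_5413 below all 5 BATI4KO libraries and FX_5415 below 4 of them. Its difference was 0.53 in the low-Rmrp libraries and passed at -1.70 (adjusted p = 0.019) without FX_5413 and FX_5415.

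As lists, glycolysis and glycogen had 17 of 35 positive and a median of -0.01, glucose uptake and insulin signalling 16 of 27 and 0.08, fatty acid oxidation 13 of 26 and 0.00, fatty acid synthesis 7 of 14 and -0.02, and lipid uptake and storage 7 of 22 and -0.07. With slow fibre content as a covariate, fatty acid oxidation had 3 of 26 positive and a median of -0.165. Lipid uptake and storage then had 2 of 22 and -0.43, and all genes a median of -0.01. Without KO_5492, KO_5495 and FX_5514 these 2 lists were at -0.295 and -0.652, and all genes at -0.04. Glycolysis and glycogen was at -0.003 and 0.057 in these 2 settings. Angptl4, an inhibitor of lipoprotein lipase, was -1.27 ± 0.33 (SE, adjusted p = 0.345), -0.41 in the low-Rmrp libraries and -1.65 (adjusted p = 0.0122) without FX_5413 and FX_5415. Gpihbp1, which anchors the lipase to capillaries, was -0.61 ± 0.18 (SE, adjusted p = 0.391). Scd1, a fatty acid desaturase, was 21.4, 126, 25.1, 104 and 12.99 CPM in floxed and 11.9 to 30.7 CPM in BATI4KO muscle (log2 difference -1.59, SE 0.57, adjusted p = 0.449), with only FX_5415 and FX_5503 high. The Gapdh model collected 1.07 to 2.92 and 1.24 to 1.398 CPM, far below other glycolytic genes, and many near-identical copies of it exist, so its value was not read. Branched-chain amino acid catabolism had 5 of 24 positive and a median of -0.06, and creatine metabolism 3 of 6 and -0.02.

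Of 29 myogenic regulators and satellite cell genes, 24 were positive, with a median of 0.20; besides Hdac9, Tead4, a partner of YAP in transcription, was 0.68 ± 0.24 (SE, adjusted p = 0.449). Myod1 was 0.38 ± 0.38 (SE, adjusted p = 0.81) and Mef2d 0.36 ± 0.18 (SE, adjusted p = 0.591). With library totals alone 20 of the 29 were positive, with a median of 0.08, and in the low-Rmrp libraries 17 were. Of 23 neuromuscular junction genes, 20 were positive, with a median of 0.12. With library totals alone 12 of the 23 were positive, with a median of 0.03, and 12 also with the tendon level as a covariate. Prkar1a, a regulatory subunit of protein kinase A, was 96.7 to 128 CPM in floxed and 123 to 137 CPM in BATI4KO muscle (log2 difference 0.31, SE 0.10, adjusted p = 0.44). Ncam1 was 0.42 ± 0.16 (SE, adjusted p = 0.489) and Dok7, an activator of MuSK, was -0.41 ± 0.17 (SE, adjusted p = 0.523). The innervation and denervation list had 7 of 12 positive and a median of 0.04, with Chrna1, a subunit of the acetylcholine receptor, at 0.35 ± 0.14 (SE, adjusted p = 0.497). These genes are mostly long, and genes of 4000 to under 8000 bases had a median of 0.05.

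Myostatin and activin signalling showed no shared direction, with 18 of 34 positive and a median of 0.01. Acvr2b, the activin receptor that binds myostatin, was 12.8, 7.28, 6.13, 6.51 and 9.72 CPM in floxed and 8.87, 14.3, 10.6, 12.9 and 12.7 CPM in BATI4KO muscle (log2 difference 0.49, SE 0.20, adjusted p = 0.528). Bmpr1a differed by 0.31 ± 0.12 (SE, adjusted p = 0.486) and Tgfbr3, a coreceptor, by -0.41 ± 0.14 (SE, adjusted p = 0.445). Secreted muscle factors had 8 of 24 positive and a median of -0.14, among them Apln at 0.79 ± 0.35 (SE, adjusted p = 0.543).

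Stress and early response genes had no member past the threshold. Heat shock proteins had 18 of 24 positive and a median of 0.09, with Hsph1 at 0.61 ± 0.19 (SE, adjusted p = 0.431). Immediate early genes had 15 of 25 positive and a median of 0.08, which became -0.16 with the low-Rmrp libraries alone and 0.49 without FX_5413 and FX_5415; Nr4a2 was 1.59 ± 0.46 (SE, adjusted p = 0.391) and Fosl2 0.50 ± 0.14 (SE, adjusted p = 0.353). The unfolded protein response had 7 of 24 positive and a median of -0.10, redox and metallothionein genes 11 of 30 and -0.05, and interferon and antigen presentation genes 14 of 40 and -0.12, the last with FX_5415 highest. Hypoxia and angiogenesis genes had 13 of 25 positive and a median of 0.01. Kdr, the main VEGF receptor of endothelium, was 44.1, 34.4, 16.6, 14.6 and 23.1 CPM in floxed and 69.5, 46.7, 40.9, 49.6 and 33.8 CPM in BATI4KO muscle (log2 difference 0.86, SE 0.29, adjusted p = 0.434). Its difference was 0.29 in the low-Rmrp libraries and passed at 1.41 (adjusted p = 0.0197) without FX_5413 and FX_5415.

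Connective tissue transcripts were lower in BATI4KO muscle without passing the threshold. Collagen and matrix genes had 17 of 64 positive, a median of -0.22 and 16 with an unadjusted p under 0.05 on the lower side, where 5.68% of all genes had one. Col12a1, a collagen of tendon and fascia, was 39.7, 36.2, 26.5, 18.2 and 16.9 CPM in floxed and 19.8, 5.83, 10.5, 7.35 and 7.96 CPM in BATI4KO muscle (log2 difference -1.41, SE 0.34, adjusted p = 0.285). Tnc differed by -1.28 ± 0.37 (SE, adjusted p = 0.391) and Thbs4 by -1.19 ± 0.35 (SE, adjusted p = 0.391), both matrix proteins of the muscle-tendon junction.

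Markers of tendon, adipocytes, fibroblasts and macrophages had lower medians in BATI4KO muscle, while lymphocyte, neutrophil, endothelial and brown adipocyte markers did not share this. The 6 tendon markers summed to 52.3 to 190.1 CPM in floxed and 20.5 to 82.5 CPM in BATI4KO libraries, with FX_5415 highest. Of the 6, 1 was positive, the median was -1.35 and 5 had an unadjusted p under 0.05 on the lower side, where 5.68% of all genes had one. With the tendon level as a covariate the median of the collagen list was -0.06, and 2 of its 64 genes had an unadjusted p under 0.05 on the lower side. In that fit 2.46% of all genes had one. Thbs4, given above with the matrix genes, is one of the 6 tendon markers. Adipocyte markers summed to 50.1 to 143 and 33.9 to 92.8 CPM (0 of 6 positive, median -1.33). Fibroblast markers summed to 974 to 1797 and 793 to 1333 CPM (0 of 8 positive, median -0.54), and macrophage markers to 21.5 to 105 and 29.5 to 58.1 CPM (0 of 7 positive, median -0.56). Without FX_5415 the medians were -0.81 for tendon, -0.60 for adipocyte, -0.36 for fibroblast and -0.29 for macrophage markers. The tendon level as a covariate put the adipocyte median at 0.26 with 5 of 6 positive, the macrophage median at 0.09 with 6 of 7 positive and the fibroblast median at -0.11. This covariate was chosen after the data were seen and was itself lower on average in BATI4KO muscle. Genotype and tendon level therefore cannot be fully told apart in that fit.

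Red blood cell markers had 0 of 4 positive and a median of -0.79, at sums of 14.2 to 32.9 and 9.77 to 19.4 CPM. Medians were -0.24 for smooth muscle and pericytes, -0.20 for satellite cells, -0.09 for Schwann cells, -0.05 for endothelium and 0.11 for skeletal muscle. Brown adipocyte genes, several of which muscle also uses, had a median of 0.06. Lymphocyte markers summed to at most 3.098 CPM, neutrophil markers to at most 0.767 CPM and bone marrow or cartilage markers to at most 3.09 CPM in any library. Whether these differences reflect the dissection or the animals was not tested.

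The genotype difference in muscle could be set against that in brown fat, the tissue in which Irf4 was targeted, in 1 fit over all 21 libraries (5 floxed and 6 BATI4KO libraries of brown fat). Of 16632 genes tested, 3 differed between the tissues at an adjusted p under 0.05, which is 0.018%. The difference given for each tissue is from a fit of that tissue alone, and the adjusted p from the fit over all 21 libraries. Among the 3, Irf4 differed by -0.48 in muscle and -2.45 in brown fat (adjusted p = 0.0136). Dusp10 was 1.49 in muscle and -0.44 in brown fat (adjusted p = 0.0136). Nthl1, a glycosylase that removes oxidised pyrimidines from DNA, was 1.46, 1.79, 1.87, 1.44 and 1.496 CPM in floxed and 0.942, 1.25, 1.45, 1.03 and 0.994 CPM in BATI4KO muscle. It differed by -0.51 there and by 1.02 in brown fat (adjusted p = 0.0136), and few counts stand behind it in muscle.

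Genes next in line did not pass. Clock differed by 0.48 in muscle and -0.36 in brown fat (adjusted p = 0.0834), Ptpn4, a tyrosine phosphatase, by 0.66 and -0.19, and Cdc27, a subunit of the anaphase-promoting complex, by 0.24 and -0.33 (adjusted p = 0.192 for each). On the other side, Adh1 was -1.39 and -0.12, Peli3, a ubiquitin ligase of innate immunity, -0.30 and 0.89, and the unnamed model AK079404 -0.07 and 3.50 (adjusted p = 0.192 for each). The model A830007P12Rik, Tor4a in RefSeq, was -0.44 and 0.81 (adjusted p = 0.241). For several leading muscle genes the brown fat value had the same sign: Lonrf3 was -1.28 and -1.16, Ccbe1 -1.53 and -1.06, and Inmt -2.04 and -0.99. Mstn was -0.06 in muscle and 2.84 ± 0.84 (SE, adjusted p = 0.193) in brown fat, and the test of the difference between the tissues did not pass (adjusted p = 0.302). DESeq2 called 55 genes in this comparison, and leaving out 1 library gave 3 to 30, the 30 without the brown fat library BAT_KO_2. Dusp10 was not among the 20 genes that passed with only the brown fat libraries of the longer title numbers, and Irf4 was not among the 2 that passed with limma voom. Title numbers shared by both tissues, 4 in all, may mark the same animals, and the fit did not use them.

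**Figure D4:**
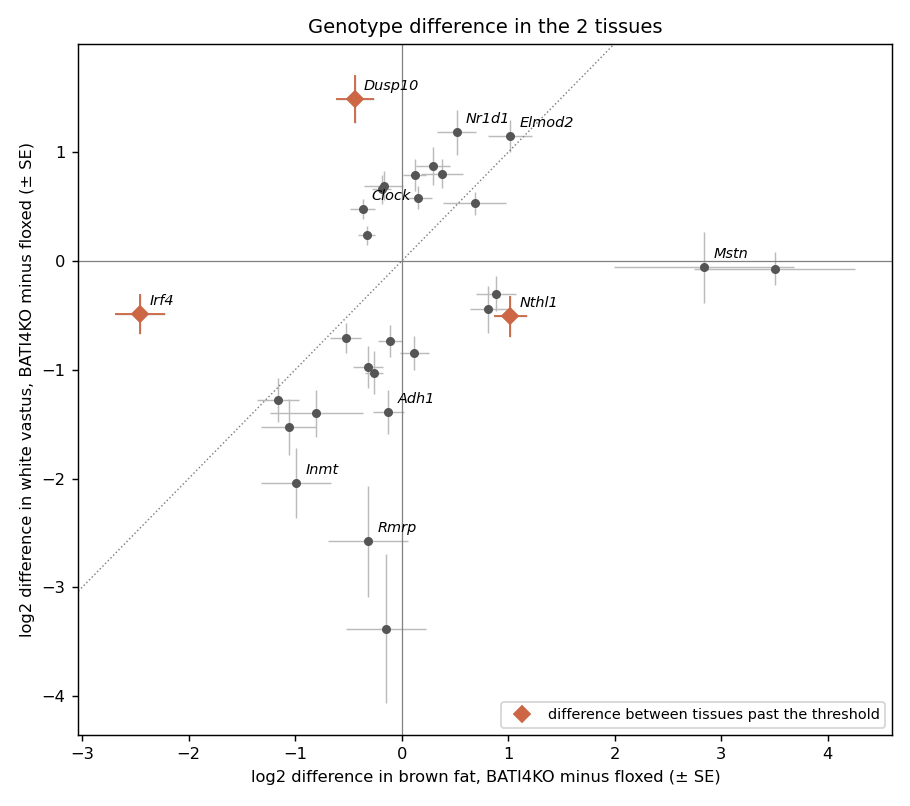
Log2 difference between BATI4KO and floxed libraries in brown fat (x axis) and white vastus (y axis) for the genes of smallest p, the genes of smallest p for the difference between tissues, and Irf4, Mstn, Rmrp and Rpph1; bars are standard errors and the dotted line marks equal differences. Irf4, Dusp10 and Nthl1 (diamonds) passed the threshold for a difference between the tissues, while Elmod2 lies near the dotted line.

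Among the most variable genes of at least 10 CPM, some stood out by library rather than by genotype. Odf3l2, known from the sperm tail, was 2.29, 3.94, 52.2, 38.5 and 5.71 CPM in floxed and 1.54, 2.22, 3.06, 3.13 and 3.84 CPM in BATI4KO muscle (log2 difference -2.91, SE 0.78, adjusted p = 0.351), high in FX_5497 and FX_5503 alone. Cish, a feedback inhibitor of cytokine and growth hormone signalling, was 3.37, 5.19, 0.99, 4.88 and 16.2 CPM in floxed and 20.4, 27.9, 6.91, 20.2 and 29.2 CPM in BATI4KO muscle (log2 difference 1.78, SE 0.57, adjusted p = 0.431). Cish varied more by genotype, with only KO_5494 within the floxed range and the other BATI4KO libraries above it. Prune2 was 86.03 CPM in FX_5413 and 21.6 CPM or less in the others. Myom3, of the M-band, Bdh1, a ketone body enzyme, and Klhl34 followed the slow fibre libraries, with their highest values in KO_5492 or KO_5495. Of the most abundant models, Ttn, which encodes titin, took 8.72% to 18.8% of all counts in a library, and Myh4 3.47% to 7.78%.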

How the data were processed

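RNA of white vastus lateralis (10 libraries) and brown adipose tissue (11 libraries) of BATI4KO and floxed mice was measured by RNA-seq. Per the labels' protocols, ribosomal RNA was depleted from total RNA with an NEBNext kit, cDNA was primed with random hexamers and libraries were made with Nextera XT, a kit that does not mark strand, so overlapping genes on opposite strands may share reads. The authors deposited whole-number read counts per gene model, not normalized; per the submitters' processing notes, reads were handled with featureCounts 1.4.6, TopHat2 2.0.14 and bcl2fastq 2.17.1.14, also SAMtools 0.1.19, edgeR and Picard 2.2.4, and the genome build was mm9. The handling of strand, of reads with several matches and of duplicates is not given in the sources used here.

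From those deposited counts, genes with enough reads were kept (edgeR 4.0.16, filterByExpr), scaled by the trimmed mean of M values and tested with the quasi-likelihood F test in R 4.3.3, 5 against 5, with Benjamini-Hochberg adjustment over all genes and a threshold of 0.05. The difference between tissues was an interaction term over all 21 libraries, with a covariate for the 2 styles of title number. DESeq2 1.42.0 and limma 3.58.1 were alternatives, and other scalings, filters, subsets of libraries and covariates (slow fibre content, the Rmrp and Rpph1 level, the Lars2 level, the tendon level) were tried. No pair of libraries agreed within sampling noise (smallest chi-square per gene 30.4). CPM values use the scaled library sizes, and a length-scaled level divides by the length of the gene model. On simulated counts for the muscle comparison, 200 of 14529 genes were changed. Of 100 changed 2-fold 70 were recovered, and of 100 changed 4-fold 99, with 14 false among 183 calls. For the difference between tissues 50 and 95 of 100 were recovered among 16632 genes, with 8 false among 153 calls. In the libraries themselves 1 gene and 3 genes passed in these 2 comparisons. Whether such shares of changed genes would be recovered from the libraries, with the patterns they share, was not tested.

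Genes were named by rule: Irf4, Ucp1, Mstn, Rmrp, Rpph1 and the fibre lists; the 10 of smallest p on each side; up to 3 of smallest p from each list; the most abundant and, at 10 CPM or more, the most variable models; and the 5 of smallest p on each side of the difference between tissues. Outside it, Arntl, Per1, Per2, Per3, Cry1, Nr1d2, Dbp, Thra, Trim63, Fbxo32, Fkbp5, Myod1, Mef2d, Dok7, Lars2, AK144265 and Tbc1d9 were chosen after values were seen. The comparison, the lists (39 of genes, 14 of markers) and these tests were chosen with earlier results of these data known. Start regions came from RefSeq (GRCm38.p6), another build than that of the counts, and were matched by symbol. Of the genes the rule names, 1 is not reported here.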

Additional observations from a re-analysis of the deposited data

Results flagged for a closer look

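In 128 checks of single libraries within a group of 5, 11 had a library far from the other 4, where chance gives about 1 in 20. Among genes, Ucp1 was 0.299 CPM in FX_5415, Nr1d1 68.2 CPM in KO_5493 against 47.3 to 48.7 CPM in the other BATI4KO libraries, and Lonrf3 8.401 CPM in KO_5496. Cecr2 stood at 30.1 CPM in FX_5413 and at 41.9 CPM in KO_5493, each the highest of its group. Kank3 stood at 19.4 CPM in FX_5497 and at 12.4 CPM in KO_5495, again the highest of each group. Among lists, the mean log2 CPM of clock output genes was lowest in KO_5492 at 4.39. Creatine metabolism was lowest among the floxed libraries in FX_5413 at 6.11, and fast fibre genes in FX_5415 at 10.8. Interferon and antigen presentation genes were highest among the floxed libraries in FX_5415 at 2.58.

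The genotype difference in muscle minus that in brown fat was 1.98 for Irf4, 1.93 for Dusp10 and -1.51 for Nthl1, on the log2 scale. For Irf4 the larger fall was the one in brown fat. Each had an adjusted p of 0.0136 in the edgeR test of the difference itself. Dusp10 was higher in all 5 BATI4KO muscle libraries than in every floxed one.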

How the results depend on the processing

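The count of genes that passed in muscle, 1 in the fit reported, was 0 with upper-quartile factors, library totals only, a filter of 1 CPM in 5 libraries, the low-Rmrp libraries only, the 3 slow-rich libraries left out, and Lars2 or the tendon level as a covariate. It was 5 with no filter, 6 at a threshold of 0.1, 6 with slow fibre content as a covariate, 9 with limma voom and quality weights, 111 with DESeq2 and 134 without FX_5413 and FX_5415. With the Rmrp and Rpph1 level as a covariate it was 1, and that gene was Clu. Leaving out single libraries gave 0 to 11. Leaving out the slow-rich libraries and using Lars2 or tendon as covariates were chosen after seeing the data. The count for the difference between tissues, 3 in the fit reported, was 55 with DESeq2 and 20 with only the brown fat libraries of the longer title numbers, and 3 to 30 when single libraries were left out, with 5 without BAT_KO_1 and 30 without BAT_KO_2. Dusp10 was lost with only those brown fat libraries, and Irf4 with limma voom, which called 2. The cause of these moves was not tested. Of 4912 values for 176 single genes under the alternatives, 101 passed where the reported value did not, 15 no longer passed, 133 moved by more than the spread between libraries (AK144265 among them passing with the opposite sign without FX_5413 and FX_5415) and 4663 neither crossed the threshold nor moved so far; of 1452 list medians, 43 moved by more than the spread between libraries. No paired analysis was possible because the floxed and BATI4KO white vastus libraries share no title number. Depth of 30479508 counts or more per library left Irf4, Nthl1, Grip2 and Myrip at a few CPM, where counting error weighs most.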
